A study of Homo sapiens with 4 samples.

Results

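Long noncoding RNA genes gave 403 introns, in 123 genes, out of 19467 introns of 2581 genes that had at least 5 nascent reads in each of 4 libraries of K562 cells. An intron was kept when every transcript that contains it belongs to a gene annotated as lincRNA, antisense, sense_intronic, processed_transcript or bidirectional_promoter_lncRNA in GENCODE release 29 and it reached 5 reads over the intron in every library. The 23 introns of MALAT1 and NEAT1 were left out. The introns were chosen by their read counts alone, so the number of reads over them describes the choice, whereas the share of those reads that was spliced took no part in it. Of the 403 introns, 149 lie in lincRNA genes, 124 in processed_transcript genes, 109 in antisense genes and 21 in sense_intronic genes, and no bidirectional_promoter_lncRNA gene had one. A further 122 introns of such genes had 4 reads in their shallowest library and fell just outside, with a mean splicing efficiency of 23.1%, and the 57 introns that had 5 in theirs averaged 33.0%. In all, 11102 introns of 3324 long noncoding RNA genes had a read in some library.

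The study asked how the K700E substitution in the splicing factor SF3B1 affects splicing while RNA is still being made. K562 is an established human leukaemia cell line of erythroid and myeloid character. The groups were 2 libraries of cells with SF3B1 K700E and 2 libraries of cells labelled wild type (WT). The labels give doxycycline at 1 µg/ml, the inducer of the modified allele, for both groups, and collection 4 days later. RNA bound to chromatin, freed of polyadenylated and of ribosomal RNA, stood for nascent RNA: an adapter was ligated to the 3′ ends, and the full-length cDNA was read on a PacBio long-read instrument. The labels do not say whether the replicates were separate cultures, so the p-values measure only the spread between these libraries, which may be technical.

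SF3B1 is part of the U2 small nuclear ribonucleoprotein, which recognises the branch point upstream of the 3′ splice site. The K700E substitution, found in myelodysplastic syndromes and chronic lymphocytic leukaemia, is known for the use of alternative 3′ splice sites a short distance upstream of the usual one. Long noncoding RNAs are capped and often spliced and polyadenylated like messenger RNAs, and many are known to be spliced less completely and to stay near their gene. Some are hosts of small nucleolar RNAs (snoRNAs), which are cut out of the excised introns, or of microRNAs.

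Sequences are shown for introns whose ends compete with one another, because most long noncoding RNA introns here overlapped another annotated intron. In the first 3 genes shown, junction reads went to 1 of the ends shown and not to the other. All are from GRCh38, read 5′ to 3′ on the strand of the gene from annotated GENCODE transcripts that retain the intron. Such a transcript exists for 58 of the 403 introns (14.4%), of which 56 begin with GT and 58 end with AG. In each splice site below, capitals mark the first or last 2 bases of the intron.
GAS5 5′ splice site, chr1:173866169-173866179, minus strand: atgGTaagtga
GAS5 3′ splice site that was used, chr1:173865892-173865917, minus strand: ctaagaccactcttatttcttAGgtg
GAS5 3′ splice site with no junction read, chr1:173865950-173865975, minus strand: aactgactaaaggcatttgttAGttt
SNHG1 5′ splice site, chr11:62853067-62853077, minus strand: cagGTgagtaa
SNHG1 3′ splice site that was used, chr11:62852837-62852862, minus strand: aacattggttttattttttccAGgtc
SNHG1 3′ splice site with no junction read, chr11:62852991-62853016, minus strand: acatgtcttactctctgtcctAGtcc
LRRC75A-AS1 5′ splice site, chr17:16439412-16439422, plus strand: tggGTaagttg
LRRC75A-AS1 3′ splice site that was used, chr17:16440162-16440187, plus strand: acctaattgctatattcacctAGgtt
LRRC75A-AS1 3′ splice site with no junction read, chr17:16439505-16439530, plus strand: tgtcctgatgatacttgtaatAGgaa
GS1-600G8.3 5′ splice site without GT, chrX:13319491-13319501, plus strand: aagGCatgtat
TTN-AS1 5′ splice site without GT, chr2:178537445-178537455, plus strand: aagATgagtat

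In the GAS5 pair, both 3′ splice sites join the same 5′ splice site. The used one took 2 of 14 and 16 of 40 reads in K700E libraries and 25 of 51 and 7 of 25 reads in WT libraries. The unused one took 0 of 16 and 0 of 46 reads in K700E libraries and 0 of 57 and 0 of 28 in WT libraries. The site that lies nearer to the 5′ splice site was thus the unused one, in both genotypes. The SNHG1 pair had the same order. Its used site had 1 of 5 and 4 of 36 reads in K700E libraries and 11 of 82 and 3 of 18 in WT libraries, and its nearer site had 0 of 11 and 0 of 45 reads in K700E libraries and 0 of 125 and 0 of 25 in WT libraries. In LRRC75A-AS1 the used site had 6 of 12 and 3 of 8 reads in K700E libraries and 14 of 28 and 4 of 12 in WT libraries, while the nearest one had 0 of 12 and 0 of 12 reads in K700E libraries and 0 of 36 and 0 of 13 in WT libraries. A count of 0 in 57 reads still allows a share of up to 5.26%, counting error only.

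DUXAP8, a transcribed pseudogene RNA, had 2 pairs of 3′ splice sites 8 to 40 bases apart in which both sites carried junction reads. The search did not cover every gene, so other such pairs may exist. The bases that lie between the sites of each pair, and that join the mature RNA when the upstream site is used, are shown with the last 2 bases, those before the downstream cut, in capitals.
DUXAP8, 24 bases, chr22:15790661-15790684, plus strand: gtcatttaccatgctgtcctccAG
DUXAP8, 33 bases, chr22:15788552-15788584, plus strand: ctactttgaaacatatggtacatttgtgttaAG
At the 24-base pair, the upstream site took 22 of 23 and 20 of 31 junction reads in K700E libraries, or 95.7 and 64.5%, and 10 of 10 and 31 of 35 in WT libraries, or 100 and 88.6%. At the 33-base pair, the upstream share was 56.5 and 76.0% in K700E libraries and 71.4 and 69.0% in WT libraries. The genotypes overlapped at the 33-base pair. At the 24-base pair K700E replicate 2 lay below both WT libraries and K700E replicate 1 lay between them, so the genotypes overlapped there too.

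The libraries held 459726 and 909679 reads over introns of all classes in K700E and 1346809 and 1185049 in WT, summed over introns. The 403 introns took 6687 and 13563 of them in K700E and 17307 and 21162 in WT, with medians per intron of 11 and 25 reads in K700E and 18 and 30 in WT. The shallowest library was K700E replicate 1, and single introns there often rest on 5 to 11 reads. The labels call the cells epithelial. Of 12 erythroid and myeloid leukaemia markers 10 had nascent reads, with sums of 68 and 210 in K700E and 264 and 393 in WT, against 7 of 10 epithelial markers with 9 and 11 in K700E and 28 and 20 in WT. Erythroid and myeloid markers thus had more reads in sum than epithelial ones in every library. TFRC gave the most of them, with 45 and 96 in K700E and 205 and 189 in WT. HBG1 had 3 and 42 in K700E and 18 and 88 in WT. GATA1 had 1 and 3 in K700E and 0 and 6 in WT, and KLF1 and EPOR had none.

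Splicing efficiency is the junction reads of an intron as a percentage of all reads that cover it, so that 100% means that each read over it was already spliced. Efficiency of long noncoding RNA introns was low and split into extremes. Of the 403 introns, 130 (32.3%) had no junction read in any library and 197 (48.9%) were below 10% in all 4 libraries. At the other end, 83 (20.6%) were at 50% or more in all 4 and 36 (8.93%), in 26 genes, were at 80% or more in all 4. Among 18408 introns of protein-coding genes 15.8% had no junction read, 20.6% were below 10% in all 4 libraries and 34.5% were at 80% or more in all 4. The mean over the introns was 25.2 and 25.2% in K700E libraries and 24.7 and 24.9% in WT libraries. In protein-coding genes it was 58.4 and 61.3% in K700E libraries and 63.9 and 60.4% in WT libraries. The noncoding mean was lower in 4 of 4 libraries, by 36.0 percentage points on average, with an exact two-sided sign-flip p of 0.125, which is the smallest that 4 libraries allow.

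**Figure D1:**
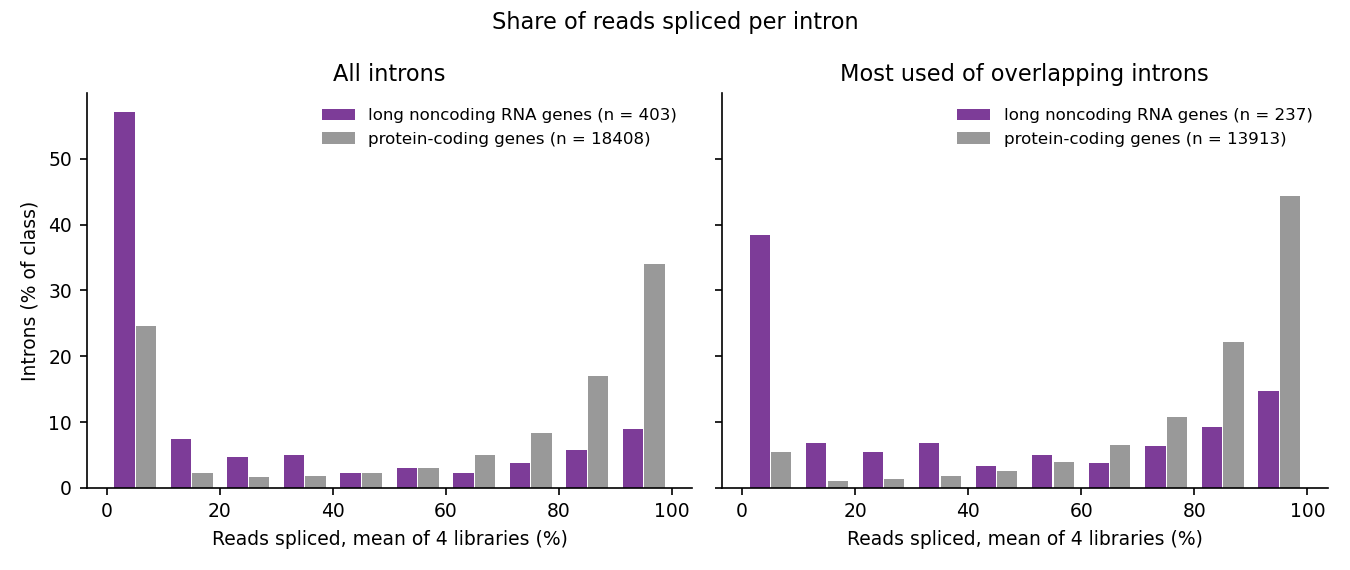
Share of introns (y axis, percent of the class) by the percentage of reads spliced, averaged over the 4 libraries (x axis), for long noncoding RNA genes (purple) and protein-coding genes (grey), with all introns on the left and the most used of overlapping introns on the right. The class up to 10% holds 57.1% of all noncoding introns and 24.6% of the coding ones, and among the most used it still holds 38.4% of the noncoding introns and 5.42% of the coding ones.

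**Figure D2:**
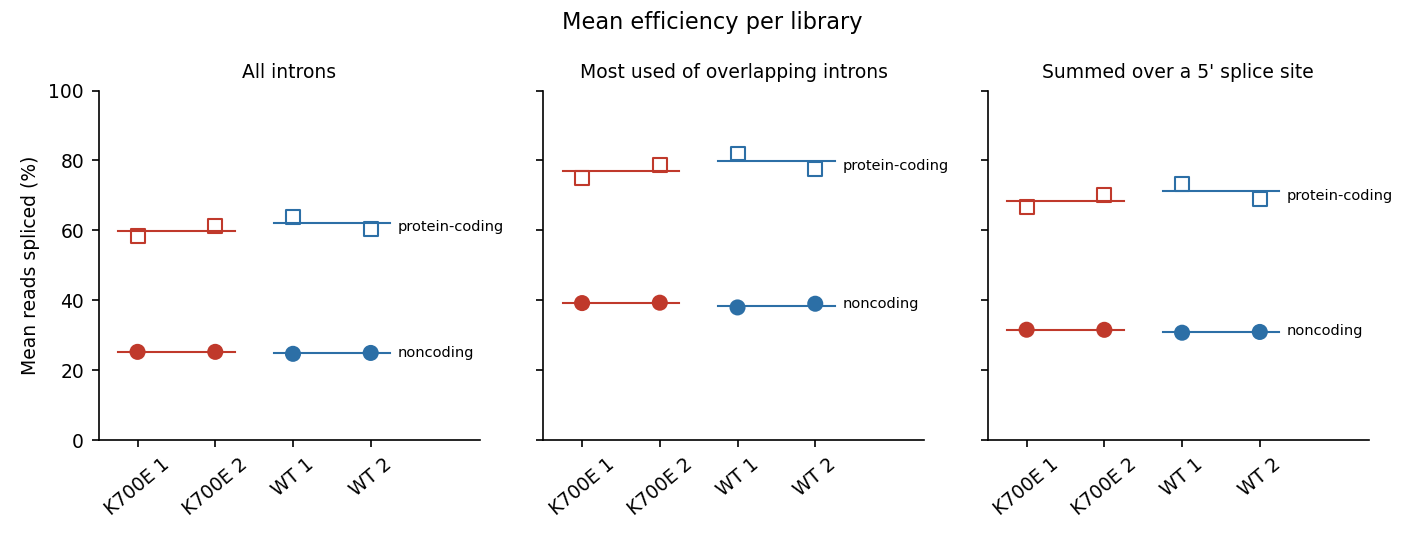
Mean percentage of reads spliced (y axis) in each library (x axis, K700E in red, WT in blue) for noncoding introns (filled circles) and protein-coding introns (open squares), over all introns, over the most used of overlapping introns and summed over a shared 5′ splice site, with a line at each genotype's mean. Over all introns the noncoding points lie between 24.7 and 25.2% and the coding points between 58.4 and 63.9%.

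Many annotated introns overlap, and a read spliced by one counts as unspliced in another. Overlap was judged only among introns with at least 5 reads in every library. When only the intron with the most junction reads of each such overlapping set was kept, 237 noncoding introns averaged 39.2 and 39.3% in K700E and 37.9 and 39.0% in WT. The 13913 coding introns kept averaged 75.0 and 78.7% in K700E and 82.0 and 77.5% in WT. In introns that no other intron above this minimum overlaps, the means over the 4 libraries were 35.7% for 163 noncoding introns and 78.8% for 10987 coding ones. Junction reads summed over each 5′ splice site, with introns below the minimum included, gave 31.6 and 31.5% in K700E and 30.7 and 30.9% in WT for 319 noncoding sites. The distance between the classes was present in each of these counts. Of the 319 sites, 49 served more than 1 of the introns, and of the 35 such sites with 10 or more junction reads, 22 had at least 80% of them in 1 intron.

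Position in the transcript separated the introns. First introns averaged 28.3% (81 introns), internal ones 27.2% (148), last ones 16.2% (50) and the only intron of a transcript 3.39% (48). The remaining 76, whose position differs between transcripts, averaged 36.8%. In protein-coding genes first introns averaged 24.0%, internal ones 66.4%, last ones 17.4%, single ones 5.81% and those of differing position 75.9%. Over all introns the gene classes were thus far apart in internal introns and those of differing position, and within 5 points of each other in first, last and single ones. With the most used of overlapping introns the noncoding mean was the lower one at every position. First introns then averaged 48.1% in noncoding and 61.5% in coding genes, internal ones 40.7 and 80.6%, last ones 24.9 and 38.9%, single ones 6.90 and 20.6% and those of differing position 48.3 and 80.2%. Length was divided at 462, 1370 and 3790 bases, the quartiles over introns of all classes, which splits the noncoding ones, shortest first, into 132, 93, 62 and 116. The means over the 4 libraries in these classes were 13.8, 27.2, 39.0 and 28.5% in noncoding genes and 52.5, 62.9, 69.9 and 58.5% in coding genes. The highest noncoding mean thus stood in the class with the fewest introns, and the highest coding mean in the same class. These are descriptions over introns, which share genes and reads.

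**Figure D3:**
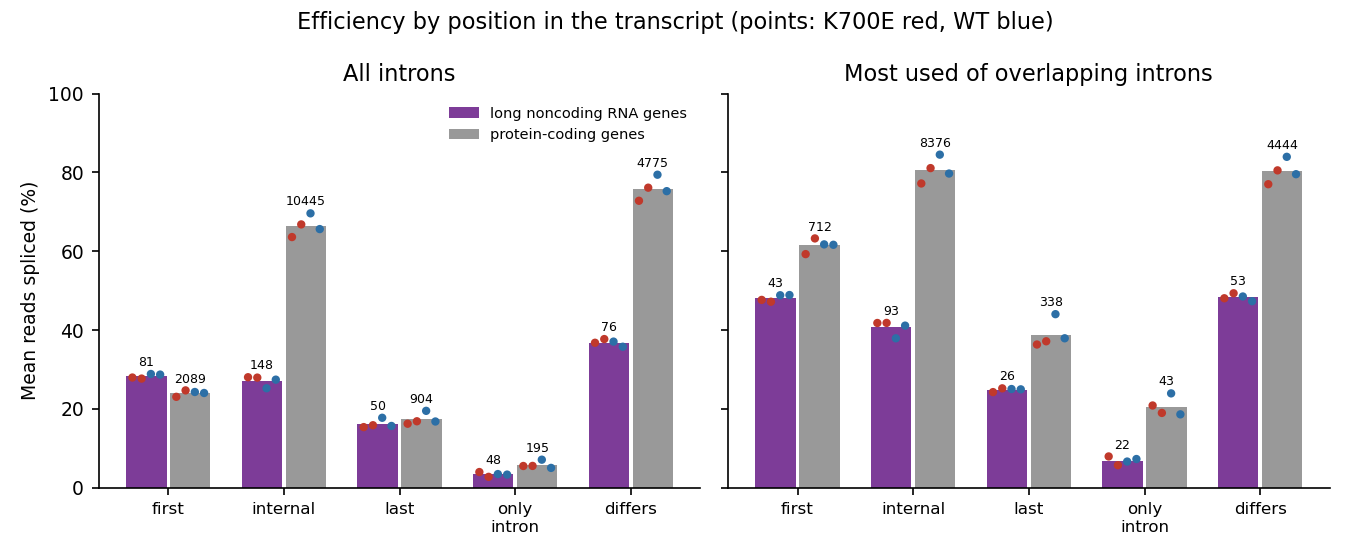
Mean percentage of reads spliced (y axis) by position of the intron in its transcript (x axis) for long noncoding RNA genes (purple) and protein-coding genes (grey), for all introns on the left and the most used on the right; bars are means over the 4 libraries, points single libraries (K700E red, WT blue) and the label on each bar is its number of introns. Over all introns, internal ones average 27.2% in noncoding and 66.4% in coding genes, and first ones 28.3 and 24.0%.

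Gene type went with efficiency as well. Introns of lincRNA genes, which lie between coding genes, averaged 35.6 and 34.4% in K700E and 33.9 and 35.3% in WT. Over the 4 libraries the means were 30.1% in processed_transcript genes, 10.6% in antisense genes and 0.147% in sense_intronic genes, which lie within introns of other genes. TTN-AS1 alone gave 74 of the 109 antisense introns. With the most used of overlapping introns the means were 44.5% in lincRNA, 43.4% in processed_transcript, 23.7% in antisense and 0.179% in sense_intronic genes. Among introns that overlap no protein-coding gene the mean was 30.9% (290 introns), among those opposite one 12.9% (80) and among those on the same strand as one 2.61% (33). No source used here says whether reads were assigned by strand, so reads of an overlapping coding transcript cannot be told apart from those of the noncoding RNA in the last 2 sets. TTN-AS1 holds most of the opposite set, with 72 of its 74 introns, and the order turned with the most used of overlapping introns. These averaged 47.2% opposite a coding gene (17 introns), 4.98% on the same strand as one (17) and 41.0% without overlap (203).

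The spliced end of the range is illustrated by introns that were nearly always joined. The bases on either side of the join are in capitals in the 30 bases of spliced RNA shown here, 15 from each exon.
AL117329.1, intron chr22:47631887-47635179, plus strand: tcagctgaaagtgaGGtgggcctcattcaa
FAM157C, intron chr16:90129929-90133218, plus strand: agctgccaggctcaGGtctgaaggccagaa
AC005208.1, intron chr17:70128158-70128642, minus strand: aaaacgctgaatcaGTatacaaaagcgtct
The AL117329.1 intron was spliced in 11 of 11 and 49 of 50 reads in K700E and in 20 of 20 and 100 of 102 in WT. FAM157C was joined in 13 of 13 and 29 of 29 reads in K700E and in 25 of 25 and 62 of 62 in WT. For AC005208.1 the counts were 48 of 50 and 73 of 82 in K700E and 59 of 63 and 132 of 149 in WT. All 3 were above 85% in every library. FAM157C had 6 of the 36 introns that reached 80% in all libraries, more than any other gene, and its most used introns averaged 98.7 and 95.4% in K700E and 98.6 and 92.6% in WT.

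In the mean efficiency of long noncoding RNA introns, both K700E libraries lay above both WT libraries, by 0.435 percentage points on average. This had an exact two-sided permutation p of 0.333, the smallest possible with 2 libraries against 2. The median over introns gave a difference of -0.0213 points. Pooled over the introns, there were 1459 junction reads on 6687 reads and 3230 on 13563 in K700E, against 2369 on 17307 and 4840 on 21162 in WT. With junction reads held to at most the reads over each intron, the pooled difference was 4.51 points (exact permutation p = 0.667). WT replicate 1 was the lowest of the pooled shares and WT replicate 2 lay between the K700E libraries. Introns beside ribosomal DNA weigh on the pooled share of WT replicate 1. One of them, FP671120.1 chr21:8223058-8223184, had 491 reads there and 29 in WT replicate 2, with 0 junction reads in both. Pooled shares without these introns were not computed. The size and direction thus depended on the summary. In coding introns the difference was -2.23 points (exact permutation p = 0.667), and the gap between the classes differed between genotypes by 2.67 points (exact permutation p = 0.667). Over single introns, 126 were lower in K700E on average, 143 were higher and 134 were equal. Both K700E libraries lay below both WT libraries in 24 introns (5.96%), and both lay above in 28 (6.95%). Over all 19467 introns, those shares were 14.2 and 7.64%. The mean distance between replicates of an intron was 7.20 points in K700E and 6.92 in WT, and that between the genotype means was 4.18. Means of 2 libraries vary less than single libraries, so these distances cannot be compared directly.

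Per intron, edgeR's quasi-likelihood test of spliced against unspliced reads, with Benjamini-Hochberg adjustment over 15614 introns, called 4 introns (0.0256%) and 0 of the 270 long noncoding RNA introns it could test. The other 133 were spliced in no read or in every read. At an unadjusted p under 0.05 there were 4 of the 270, and the background for that threshold was 2.24%. DESeq2 and limma each called 1 intron and no long noncoding RNA one. On simulated counts of the same depth the edgeR test recovered 7% of introns changed by 4 log2 units and 0% of those changed by 2. The simulated replicate spread was set beforehand and not estimated from these libraries. Only introns of intermediate efficiency, from all classes, were changed. Log2 changes of 2 were thus not detectable per intron under these settings, and recovery for introns near 0% was not simulated.

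**Figure D4:**
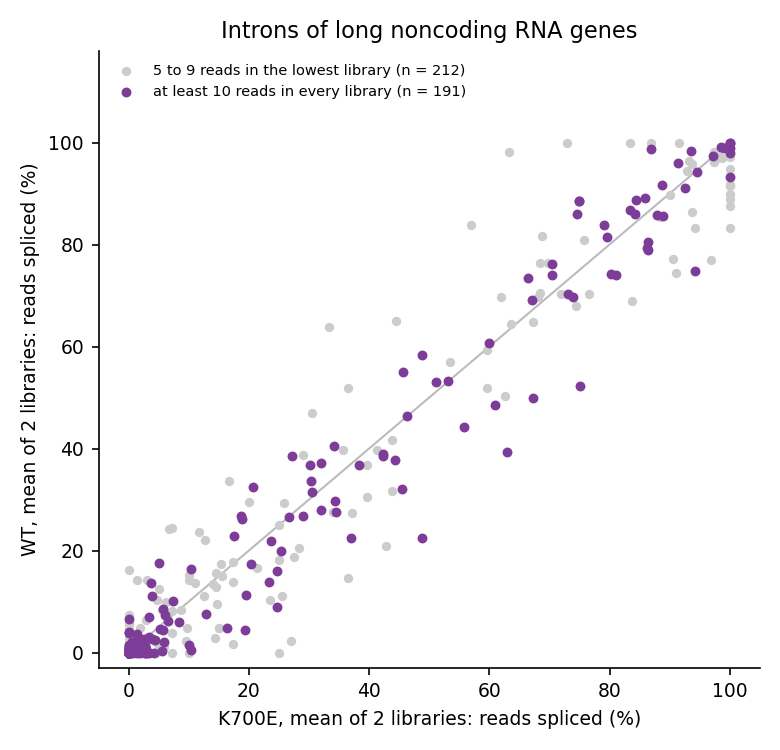
Percentage of reads spliced at each long noncoding RNA intron, as the mean of 2 libraries, in K700E (x axis) and WT (y axis), with the line of equal values; purple marks the 191 introns with at least 10 reads in every library and grey the others. Points follow the line, with a mean distance between genotypes of 4.18 percentage points.

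The 4 introns under an unadjusted p of 0.05 were chosen after their values were seen. The GS1-600G8.3 intron chrX:13311089-13311701 was spliced in 3 of 31 and 9 of 81 reads in K700E, against 0 of 104 and 2 of 184 in WT. CU634019.6 chr21:6995325-6997591 was spliced in 4 of 6 and 6 of 10 reads in K700E, against 6 of 6 and 27 of 28 in WT. AL713998.1 had 15 of 26 and 45 of 113 reads spliced in K700E, against 24 of 46 and 162 of 251 in WT. Its genotypes overlapped, since K700E replicate 1 lay above WT replicate 1. In LINC01203 chrX:13373632-13375400, 5 of 6 and 5 of 8 reads were spliced in K700E, and WT had 11 junction reads over 8 reads and 18 over 18, set to 100% each. Unadjusted p-values of these introns by edgeR's quasi-likelihood test lay between 0.0121 and 0.0461, and the adjusted p of each was 1.00.

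Among the 191 introns with at least 10 reads in every library, 9 were lower in both K700E libraries than in both WT libraries and 16 were higher, where the shares over all introns at that depth were 16.5 and 7.62%. The largest higher one was the first intron of LINC00355, chr13:64034538-64075241, with 6 of 10 and 6 of 16 reads spliced in K700E, against 2 of 10 and 3 of 12 in WT. GAS5 gave 3 of the 8 largest. Its intron chr1:173866797-173866990 was spliced in 7 of 10 and 24 of 43 reads in K700E, against 28 of 60 and 7 of 22 in WT. The next intron of GAS5, chr1:173866568-173866760, had 3 of 12 and 10 of 41 in K700E, against 9 of 65 and 1 of 25 in WT, and chr1:173866207-173866527 had 5 of 16 and 23 of 54 in K700E, against 20 of 73 and 4 of 23 in WT. These 3 are neighbours in the RNA, so long reads can cover them together. DUXAP8 chr22:15788700-15788819 had 32 of 38 and 39 of 59 in K700E, against 12 of 30 and 40 of 62 in WT. LINC01203, AC108010.1 and TTN-AS1 (chr2:178583922-178584572, with 4 of 17 and 5 of 33 in K700E, against 2 of 33 and 2 of 72 in WT) made up the 8, at 13.4 to 17.3 points higher. The 8 lie 13.4 to 26.2 points above WT, and edgeR's adjusted p was 1.00 for each.

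The largest lower one was TTN-AS1 chr2:178542362-178597595, with 1 of 13 and 0 of 23 reads spliced in K700E, against 3 of 24 and 6 of 61 in WT, a difference of -7.32 points. TTN-AS1 held 4 of the 8 in this direction. Its intron chr2:178539979-178540106 had 2 of 22 and 8 of 69 in K700E, against 15 of 80 and 16 of 114 in WT. An intron of FAM157C, both LINC01608 introns named by the rule and the ZFAS1 intron chr20:49280571-49280902, in the host gene of SNORD12, were 2.92 to 4.80 points lower. No difference among the lower ones exceeded 7.32 points, and edgeR's adjusted p was 1.00 for each.

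TTN-AS1, transcribed from the strand opposite the titin gene, held 74 of the introns, more than any other gene. They overlap heavily: 30 had no junction read, and the 5 most used held 66.3% of the gene's 1402 junction reads. The intron chr2:178535829-178537603 was spliced in 24 of 33 and 64 of 87 reads in K700E and in 52 of 72 and 119 of 174 in WT. The next one, chr2:178537692-178538697, had 24 of 32 and 54 of 82 in K700E and 55 of 71 and 119 of 169 in WT. Both were between 65.9 and 77.5% in every library, whereas the intron chr2:178528814-178529284 had 0 of 42 and 0 of 103 in K700E and 0 of 95 and 0 of 196 in WT. A count of 0 in 196 reads allows a share of up to 1.53%. The 5′ splice site at position 178523637 served 11 of the introns with 367 junction reads, 54.0% of them joined at the intron that ends at 178535731. That intron had 18 of 35 and 51 of 93 in K700E and 39 of 71 and 90 of 175 in WT. The TTN-AS1 intron that begins with AT, shown above, was spliced in 0 of 35 and 0 of 98 reads in K700E and in 1 of 93 and 0 of 189 in WT, while the intron chr2:178535829-178537603, which ends at the same 3′ splice site, was used. The 10 most used, non-overlapping introns averaged 39.2 and 39.7% in K700E and 48.2 and 41.1% in WT.

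**Figure D5:**
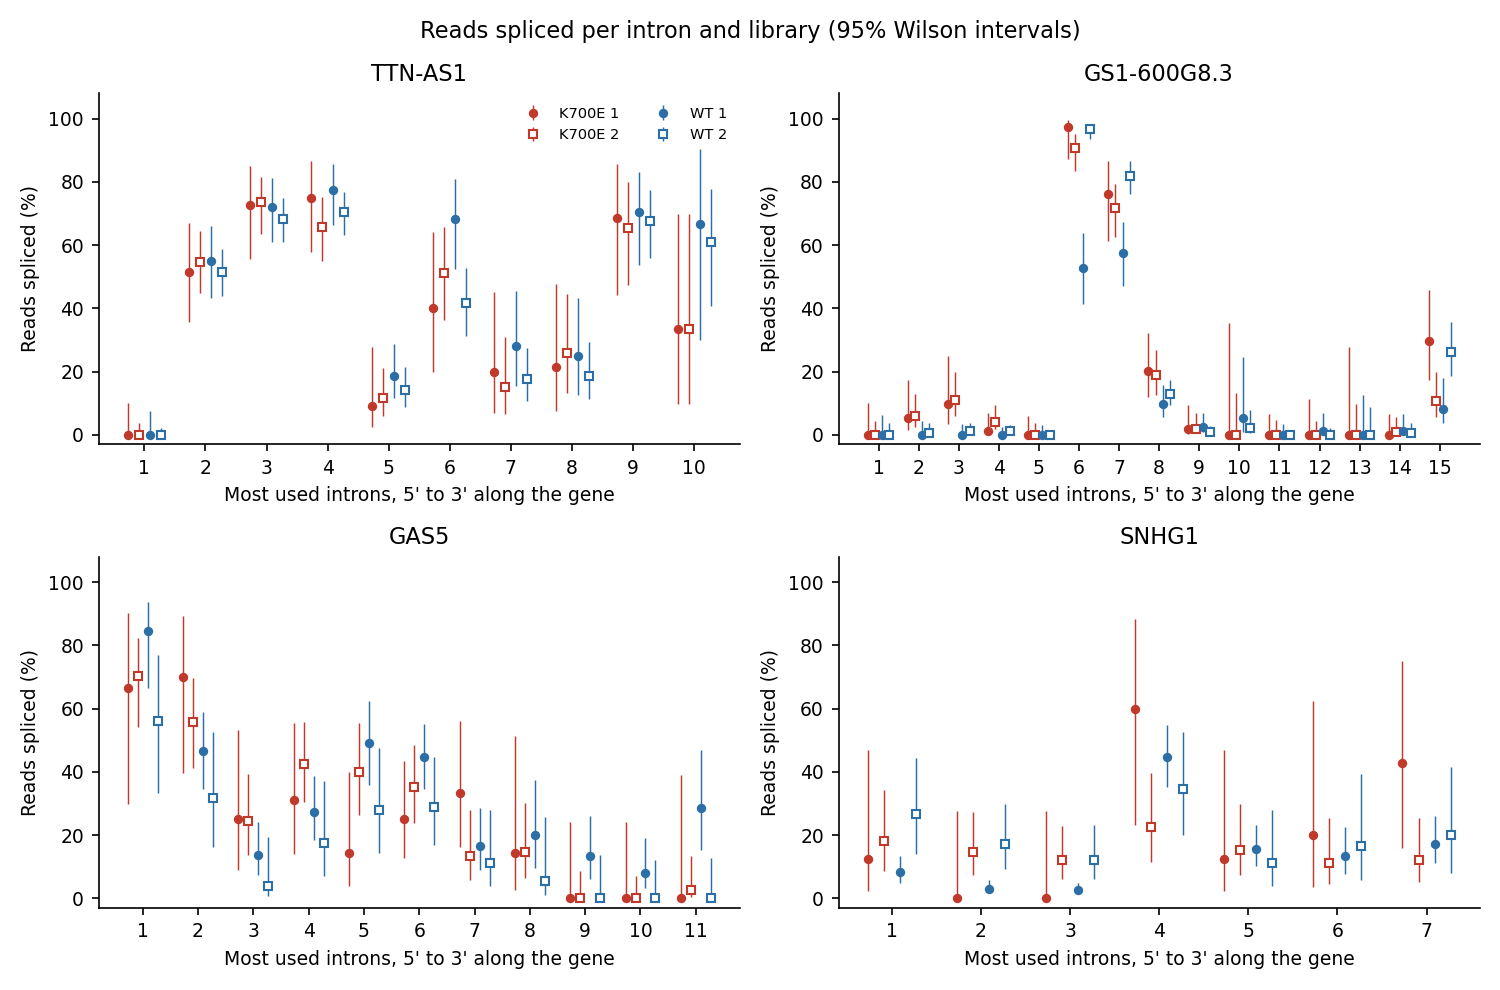
Percentage of reads spliced (y axis) at the most used, non-overlapping introns of TTN-AS1, GS1-600G8.3, GAS5 and SNHG1, in order from the 5′ end (x axis), 1 point per library (K700E red, WT blue) with Wilson 95% intervals that cover counting error only. In GAS5 the first intron lies above the last in every library, with values between them that rise and fall. Introns near 0 stand beside introns above 50% in GS1-600G8.3.

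GS1-600G8.3, an antisense gene on the X chromosome, had 15 introns and put 96.3% of its 898 junction reads into 5 of them. The intron chrX:13312132-13312234 was spliced in 39 of 40 and 89 of 98 reads in K700E and in 38 of 72 and 232 of 240 in WT. WT replicate 1 stood alone at 52.8% (Wilson 95% interval 41.4 to 63.9%), and WT replicate 2 lay between the K700E libraries. Without WT replicate 2 this intron passed the threshold as higher in K700E (edgeR adjusted p = 0.0459), the single case among all alternatives. The intron chrX:13311714-13311832 had 1 of 77 and 5 of 121 in K700E and 0 of 159 and 4 of 333 in WT, so this gene holds introns at under 5% and, in 3 of the 4 libraries, at over 90% within the same RNA. The intron that begins with GC, whose 5′ splice site is shown above, was spliced in 11 of 37 and 8 of 74 reads in K700E and in 5 of 60 and 26 of 99 in WT. Its genotypes overlapped.

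GAS5, a growth-arrest RNA that hosts C/D box snoRNAs in its introns, had 17 introns. Its 11 most used introns averaged 25.4 and 27.2% in K700E and 32.1 and 16.6% in WT. Along the RNA, the first of them (chr1:173867044-173867959) was spliced in 4 of 6 and 26 of 37 reads in K700E and in 22 of 26 and 9 of 16 in WT. Another 3 annotated 5′ splice sites that join the same 3′ splice site had no junction read, the nearest of them 21 bases away. The last one (chr1:173864076-173864256) was spliced in 0 of 6 and 1 of 38 in K700E and in 8 of 28 and 0 of 26 in WT. The first of the most used introns thus lay above 50% and the last below 30% in each library. The decline between them was not steady. The intron chr1:173866568-173866760 was at 25.0 and 24.4% in K700E and 13.8 and 4.0% in WT. Further along, chr1:173865548-173865856 was at 25.0 and 35.2% in K700E and 44.7 and 28.9% in WT. In the 3 introns nearest the 3′ end, WT replicate 1 gave 18 of the 19 junction reads.

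SNHG1, a host of C/D box snoRNAs, had 12 introns, and its 7 most used averaged 21.1 and 15.2% in K700E and 15.0 and 19.8% in WT. WT replicate 1 had far more reads here than the others: the intron chr11:62854552-62854887, which holds SNORD28, was spliced in 0 of 10 and 7 of 58 reads in K700E and in 9 of 350 and 7 of 57 in WT. Over 7 genes named as snoRNA hosts, 38 introns averaged 12.2 and 12.8% in K700E and 13.0 and 9.07% in WT. Of these, 13 were lower in K700E, 15 were higher and 10 had no junction read. Only 1 reached 50% in every library, and 0 of the 28 tested were called. LRRC75A-AS1 was not on that list, although its introns hold snoRNAs too. Of its 11 introns, 2 that share a 5′ splice site reached 50% in every library, and the longer of them spans SNORD65. Summed, they had 28 junction reads on 16 reads and 20 on 16 in K700E, and 92 on 50 and 34 on 20 in WT. The same junction reads were thus counted for both. Which of the 2 introns was spliced cannot be told from these counts.

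GARS-DT, which starts divergently from the glycyl-tRNA synthetase gene, had 14 introns. Its first intron, chr7:30585480-30594710, was spliced in 14 of 16 and 45 of 47 reads in K700E and in 7 of 7 and 32 of 32 in WT. The intron chr7:30578092-30579230 had 10 of 17 and 20 of 38 in K700E and 1 of 14 and 26 of 32 in WT, where the WT libraries were the lowest and the highest of the 4. LINC01572, a lincRNA gene with 14 introns, was spliced at chr16:72523416-72540577 in 12 of 15 and 18 of 23 reads in K700E and in 8 of 10 and 14 of 16 in WT. Its libraries spread from 78.3 to 87.5%, and the genotypes overlapped.

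FTX, a noncoding RNA of the X-inactivation centre that carries microRNAs in its introns, had 6 introns. The mature RNA of one of these microRNAs is shown, from RefSeq for GRCh38.p14, with its seed, bases 2 to 8, in capitals, since the introns around it were little spliced.
hsa-miR-374a-3p, chrX:74287295-74287316, minus strand: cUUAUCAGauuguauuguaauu
The intron chrX:74280495-74280930 was spliced in 8 of 10 and 38 of 39 reads in K700E and in 16 of 18 and 50 of 53 in WT. The microRNA lies within 2 overlapping introns. The intron chrX:74281849-74292325 had 0 of 5 and 1 of 27 in K700E and 0 of 6 and 4 of 41 in WT, and chrX:74281849-74291757, whose end comes from another version of the transcript than the files name, had 1 of 6 and 1 of 30 in K700E and 2 of 11 and 6 of 49 in WT. Both were below 20% in every library, where the intron chrX:74280495-74280930 was at 80% or more. A total of 4 of the FTX introns were lower in K700E, 1 was higher and 0 of the 5 tested were called.

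Among microRNA hosts, 4 genes had 6 introns. MIR17HG, host of the miR-17-92 cluster, was spliced at chr13:91349771-91350155 in 0 of 17 and 3 of 96 reads in K700E and in 0 of 116 and 2 of 65 in WT. The MIR4435-2HG intron chr2:111480062-111480168 had no junction read in 21 and 47 reads in K700E and in 18 and 59 in WT. Of the 6 introns, 3 had no junction read, 3 were higher in K700E and 0 of the 3 tested were called. Among those without a junction read, the DLEU2 entry chr13:50044750-50044750 is an annotated gap of 1 base. Among the higher ones, 2 are MIR99AHG introns at a shared 5′ splice site. Summed, these had 10 junction reads on 5 reads and 18 on 9 in K700E, and 10 on 5 and 10 on 6 in WT. The same junction reads were thus counted for both. Nuclear or leukaemia RNAs gave 17 introns in CASC15, CYTOR, DLEU1 and PVT1, of which 5 were lower in K700E, 6 were higher, 6 had no junction read and 0 of the 11 tested were called. DLEU1, in the chromosome 13 region deleted in chronic lymphocytic leukaemia, had a well spliced intron, chr13:50415203-50433412, with 13 of 15 and 31 of 36 in K700E and 12 of 14 and 39 of 54 in WT. The 3 introns before it had 0 junction reads in every library.

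The introns with the most reads were hardly spliced. Of the 10 with the most, 9 belong to FP236383.1 and FP671120.1, which lie beside or across ribosomal DNA repeats on chromosome 21 in RefSeq's GRCh38.p14, and the other is the GS1-600G8.3 intron at 13311714. At FP671120.1 chr21:8223058-8223184 there were 79 and 51 reads in K700E and 491 and 29 in WT, with 0 junction reads in all. WT replicate 1 stood apart at all 9. The genes are near-identical copies, so reads can be split between them or counted in both. The difference in efficiency at FP236383.1 chr21:8380973-8383783, whose end comes from another version of the transcript than the files name, -9.92 points with 3 of 79 and 2 of 57 in K700E and 6 of 491 and 7 of 27 in WT, turned to 2.43 points without WT replicate 2. Without all introns of these genes the mean difference over the remaining introns was 0.470 points.

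Summed over all introns of a gene, efficiency was tested in 5950 genes, of which 180 were long noncoding RNA genes. The sums include introns below the read minimum, so the 180 go beyond the 123 genes of the chosen introns. In them a read counts once for each annotated intron that it covers, as spliced or unspliced. No gene was called by edgeR (0.0%), DESeq2 called 8 genes and no long noncoding one, and 3 of the 180 had an unadjusted p under 0.05, where the background was 3.24%. CR381653.1 had 6 of 36 and 1 of 18 of these summed counts spliced in K700E, against 12 of 23 and 9 of 17 in WT (-41.4 points, edgeR log2 odds ratio -3.01 ± 1.01 SE, adjusted p = 1.00). TTN-AS1 was at 8.50 and 8.03% in K700E and 9.35 and 7.59% in WT, and SNHG1 at 8.57 and 8.51% in K700E and 8.27 and 9.76% in WT. In these sums 91 long noncoding RNA genes were lower in K700E and 89 higher, with a median of -0.308 points, beside 3611 lower and 2335 higher with a median of -2.37 over all genes.

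Nascent reads were compared with 1 intron per gene, in 2156 genes with at least 5 reads in every library, 114 of them long noncoding RNA genes. The same minimum chose the introns, so the counts of directions are a description. No gene was called by edgeR (0.0%), and DESeq2 called 1, which was no long noncoding RNA gene. At an unadjusted p under 0.05 there were 9 of the 114, where the background was 6.31%. AC124319.1, a sense_intronic gene, had 21 and 30 reads in K700E and 210 and 106 in WT, or 671 and 531 CPM (TMM-scaled over these genes) in K700E and 2760 and 1510 CPM in WT, a log2 fold change of -1.83 ± 0.72 SE (edgeR adjusted p = 0.729). LINC01049 had 9 and 24 reads in K700E and 11 and 6 in WT, or 287 and 425 CPM in K700E and 145 and 85.5 CPM in WT (log2 1.64 ± 0.62 SE, edgeR adjusted p = 0.729). In both the libraries of the genotypes did not overlap. The SNHG1 value of -1.98 went with a single high library, since there were 10 and 58 reads in K700E and 350 and 57 in WT. Both K700E libraries were below both WT libraries in 7 of the 114 genes and above in 30, and the shares over all genes were 17.2 and 18.1%. Fewer cells with a transcript and less of it per cell cannot be told apart in these bulk libraries.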

How the data were processed

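The 4 tables, 1 per library, hold nascent long reads of K562 cells, and 0 columns belong to other samples. The authors deposited 2 counts for each annotated intron, all reads over it and those spliced at its junction, and their ratio (CoSE), rounded to 2 decimals. Reads were processed with cutadapt and minimap2 on hg38, per the submitters' processing notes; their versions, and how reads were assigned to introns and strands, are not stated there. Tables of RNA 3′ end positions were not used.

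Introns were placed by transcript, intron number and start on GENCODE release 29, and those of several transcripts were counted once, with the highest count. The tables give no intron end. Of the 403 introns 379 were placed by a transcript of the same version and 24 only by another version, whose end can differ. Introns sharing a 5′ splice site had identical junction counts in 98.4% of 252 pairs with 3′ splice sites 1 to 7 bases apart and in 0 of 223 pairs 12 to 30 bases apart, so closer sites were not separated. Identical counts also occurred in 1 of 891 pairs 101 to 1000 bases apart. The shortest of the 403 introns is an annotated gap of 1 base.

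Efficiency is junction reads over intron reads, at most 100%. Spliced and unspliced counts were tested with edgeR 4.0.16 in R 4.3.3 (quasi-likelihood, dispersion held at 0 for introns and estimated for genes), with DESeq2 1.42.0 and limma 3.58.1 as alternatives, and adjusted over all introns or genes. Nascent reads per gene used TMM scaling. Means were compared by exact permutation. The tests were tested on simulated data. Intervals are Wilson 95% intervals, and these and limits for a count of 0 (3 counts) cover counting error only. Replicate numbers are not a term. Deviations from the group means did not rise together in libraries of the same number (correlation across introns -0.104). With 2 libraries per group this cannot show whether libraries were prepared in pairs.

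The introns, gene lists and tests were chosen with earlier results of these data known. Introns named are those called, the 10 with most reads, the 8 largest lower and 8 largest higher without overlap at 10 reads or more, list members and the 6 genes with the most introns; others are named as examples of a pattern, after their values were seen. A splice site score was not computed, since 14.4% of introns had sequence.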

Additional observations from a re-analysis of the deposited data

How the results depend on the processing

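The mean difference between K700E and WT kept its sign in every alternative run except the median over introns (-0.0213 points); it was 4.51 points with reads pooled over introns and 0.308 to 0.562 with each library left out. Noncoding introns stayed below coding ones in all alternatives, by -30.1 to -77.7 points. The genotype difference of that gap was 10.0 points with pooled reads, 5.96 for medians and 0.773 to 4.56 with each library left out. With the replicate number as a block the differences were 0.435 and 2.67 points, 2 introns were called and 0 were noncoding. The crossed pairing, tried after seeing the data, called 4 introns, 0 noncoding. Calls of noncoding introns stayed at 0 except without WT replicate 2, with 1: GS1-600G8.3 chrX:13312132-13312234, adjusted p = 0.0459 by edgeR (range over leaving out each library 0 to 1). The cause was not tested. Over all introns, 4 were called, against 6 at a minimum of 20 reads, 0 with an estimated dispersion, 1 with DESeq2, 1 with limma and 0 to 10 with each library left out, the 10 without WT replicate 2. The FP236383.1 intron at 8380973 (-9.92 points) ran from -22.3 to 2.43 points with each library left out and changed sign without WT replicate 2. The other 25 named introns did not reverse, but for most of them the choice fixed this. The largest lower and largest higher introns were picked without overlap between genotypes, so leaving out 1 library cannot turn their sign. Named introns without a junction read in any library have a difference of 0 and no sign. With transcripts of the same version only, tried after seeing the data, the difference was 0.456 points and 0 noncoding introns were called. No noncoding gene was called for efficiency or reads in any alternative. Depth limits single introns: 73 of the 403 had 20 reads in every library.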
